A study of Macaca radiata with 6 samples.

Results

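The genes described here are the Wnt ligands, their receptors and secreted inhibitors, and the factors that carry the signal into the nucleus, measured in corpora lutea that were taken from bonnet monkeys (Macaca radiata) given prostaglandin F2alpha (PGF2alpha) or vehicle. Members were chosen by gene symbol: every probe set that the platform annotation assigns to 1 symbol of the WNT, FZD, SFRP, DKK, DVL, LRP5/6, TCF7 or AXIN families, or to FRZB, WIF1, LEF1, CTNNB1, APC or PORCN. That gave 84 probe sets of 44 genes, out of 52865 probe sets and 14132 genes named by 1 symbol. FRZB, LEF1, CTNNB1, DVL1, DVL3 and AXIN1 had no probe set under that rule and were not analysed here. The corpus luteum, formed from the ovulated follicle, makes progesterone, and PGF2alpha is the prostaglandin that brings on its regression (luteolysis).

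Wnt proteins are secreted, lipid-modified ligands that bind Frizzled receptors with the coreceptors LRP5 or LRP6. In the canonical branch, Dishevelled then blocks the Axin and APC complex that marks beta-catenin for destruction, and beta-catenin enters the nucleus to act with TCF/LEF factors; other branches act on cell polarity and calcium without beta-catenin. Secreted Frizzled-related proteins (SFRP) bind the ligands, and Dickkopf proteins such as DKK1 block the coreceptors. In the rodent ovary, WNT4 acts in ovarian development and FZD4 is needed for normal corpora lutea.

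Female monkeys received 3 intramuscular injections of PGF2alpha at 59 µg per kg body weight, or PBS as vehicle, on day 10 of the luteal phase. The corpus luteum was removed 24 h later, with 3 arrays per treatment: PGF2alpha replicates 1 to 3 and vehicle replicates 4 to 6. Biotin-labelled total RNA was hybridised to an Affymetrix array designed for the rhesus macaque, so probes may match bonnet monkey transcripts unequally, and each measurement is of whole luteal tissue, which was cut into pieces at collection. The labels do not tie arrays to named animals, so a p-value here reflects only how far these 6 samples spread, which may be partly technical. In such tissue, fewer cells of a type and less RNA per cell cannot be told apart.

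Values are MAS5 signals, linear probe brightness with no absolute unit. Every array had been scaled to the same trimmed mean, and the median signal per array was 115 to 134. The scanner experiment files place PGF2alpha 1 and 3 and vehicle 5 and 6 in a first hybridisation run, and PGF2alpha 2 and vehicle 4 in a second. The ratio of 3′ to 5′ actin probe sets, a measure of RNA integrity, was 1.73 to 1.78 in the PGF2alpha arrays. It was 1.54, 2.25 and 1.49 in vehicle 4, 5 and 6. The same ratio for GAPDH was 1.39 to 1.68 in the PGF2alpha arrays and 1.73, 1.41 and 1.56 in vehicle 4, 5 and 6. PGF2alpha 3 was the treated array nearest the vehicle mean in 45% of all 9980 tested genes and in 11 of the 26 tested Wnt genes. Among genes with adjusted p under 0.05 it was nearest in 444 of 606 (73.3%), and in 3 of the 5 such Wnt probe sets. Markers of the labelled tissue were present: STAR, which moves cholesterol into the mitochondrion for steroid synthesis, had signals of 58817, 71945 and 59423 in vehicle.

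A probe set was tested when it lay at or above its array's median on at least 3 of the 6 arrays, and each gene was represented by its brightest tested probe set. Fold changes are differences of log2(signal + 40), which understates the change of low signals, and adjusted p is limma's, corrected by Benjamini-Hochberg across the 26944 probe sets tested. A gene was called when adjusted p was under 0.05. Of the 44 Wnt genes, 26 were tested. WNT10B, DKK1 and TCF7 rose after PGF2alpha and WNT5A fell: 4 of 26 genes, or 15.4%, against 6.07% of all tested genes. The 3 that rose compare with 3.76% of all genes called higher, and the 1 that fell with 2.31% called lower. By probe set, 5 of 52 were called (9.62%, against 5.01% of all), the fifth being a DKK3 probe set that does not represent its gene. The groups did not overlap in 5 of the 26 genes (19.2%), beside 30.9% of all genes. DKK1 and FZD3 met the filter through PGF2alpha arrays alone and so had to differ, and these shares are therefore only a description. Without them, 3 of 24 genes were called and the same number had groups that did not overlap (12.5%). The 26 genes had no common direction: 13 differences were positive and 13 negative, the median log2 difference was 0.0061 against -0.018 over all genes, and the median size without sign was 0.36 against 0.24.

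**Figure D1:**
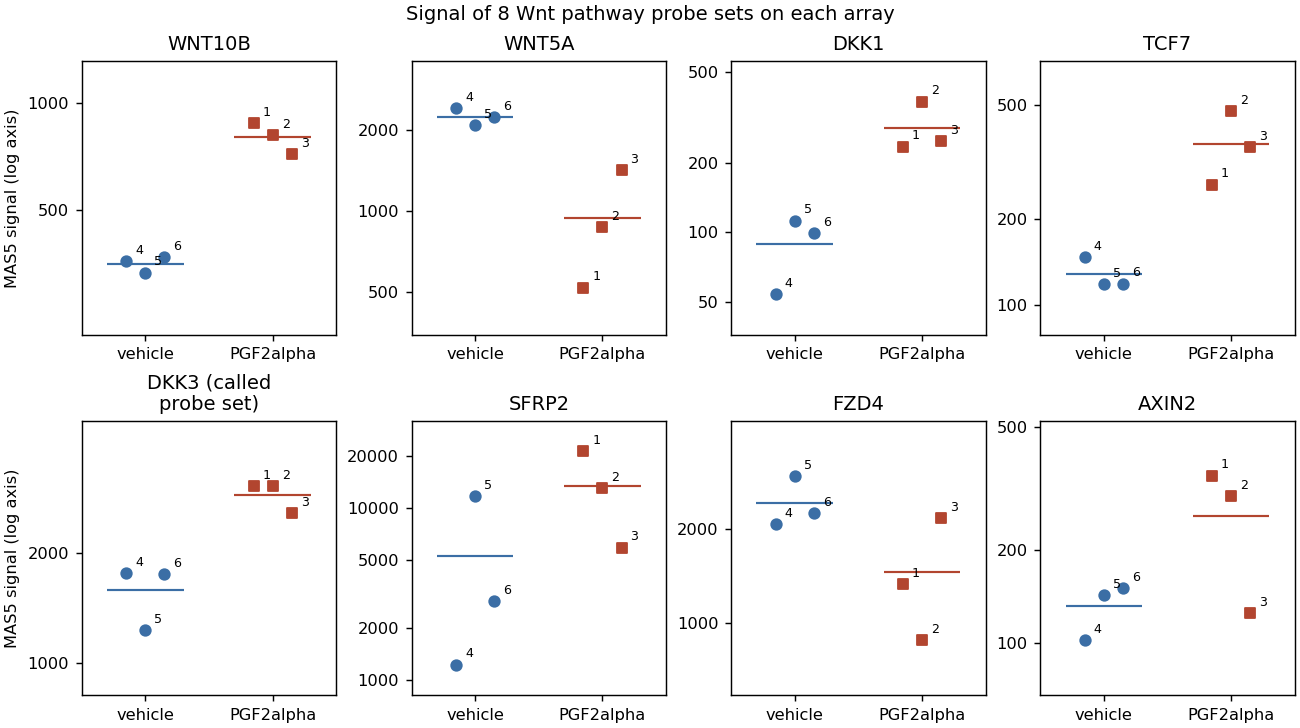
MAS5 signal (log axis) of 8 Wnt probe sets on each array, with vehicle in blue, PGF2alpha in red, the replicate number beside each point and a line at the group's arithmetic mean. WNT10B, WNT5A, DKK1, TCF7 and the called DKK3 probe set have groups that do not overlap, while SFRP2, FZD4 and AXIN2 have groups that do.

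Among the ligands, WNT10B, a ligand of the canonical branch, roughly doubled, and WNT5A, the best-known ligand of the branches that act without beta-catenin, fell, with every treated array below every vehicle array. The WNT10B probe set (MmuSTS.1715.1.S1_at) gave 876, 810.2 and 716 in PGF2alpha 1, 2 and 3, and 357, 332 and 367 in vehicle 4, 5 and 6. All 3 treated arrays lay well above the vehicle arrays, and the spread within each group was small: 801 ± 80.6 against 352 ± 18.0 (SD, n = 3 each). The log2 fold change was 1.10 (SE 0.156, 95% interval 0.75 to 1.45, limma adjusted p = 0.00932), a fold of 2.14, and it was 1.10 within each hybridisation run. WNT10B kept its call when each array was left out in turn, with adjusted p from 0.0072 to 0.0475.

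The WNT5A probe set (MmugDNA.8926.1.S1_s_at) gave 517, 871 and 1426 in the PGF2alpha arrays and 2421, 2088 and 2248 in the vehicle arrays. Vehicle arrays lay close together, whereas the treated arrays spread 2.76-fold, with PGF2alpha 1 lowest and PGF2alpha 3 highest. The means were 938 ± 458 and 2252 ± 167 (SD, n = 3 each), and the log2 fold change was -1.34 (SE 0.299, 95% interval -2.01 to -0.66, limma adjusted p = 0.0377), or 2.53-fold lower; it was -1.29 within run 1 and -1.43 within run 2. The suffix of this probe set marks probes that can match more than 1 transcript. The other WNT5A probe sets had the same sign without reaching the threshold: 1 gave 118, 255 and 345 against 456, 544 and 428 (log2 difference -0.97, adjusted p = 0.105), and the other gave 61.8, 119 and 243 against 281, 223 and 261 (-0.82, adjusted p = 0.221). In all 3 probe sets PGF2alpha 1 was the lowest array and PGF2alpha 3 the highest treated one. The WNT5A call was lost without any 1 array other than PGF2alpha 3 (adjusted p 0.0766 to 0.121), and without PGF2alpha 3 adjusted p was 0.00472.

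Steroidogenic cell markers were lower in sum on the treated arrays, as WNT5A was. The summed signal of the 8 luteal marker genes with a probe set was 79608, 87259.8 and 143290 in PGF2alpha 1, 2 and 3, against 158826 to 188821 in vehicle, and 4 of the 8 genes had the treated arrays in the order seen in WNT5A. Of those 8 genes, 1 (STAR) fell and none rose (12.5%, beside 2.31% of all tested genes called lower). STAR gave -0.67 (limma adjusted p = 0.0497) and lost its call with the run as a block (0.0572) or with no filter (0.193). The list had a median log2 difference of -0.54 and a lowest signal of 154, and its part in the WNT5A difference was not tested.

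The remaining tested ligand genes did not pass the threshold. WNT5B, a close relative of WNT5A, gave 115, 16.4 and 171 against 149, 142 and 209.7 (log2 difference -0.74, limma adjusted p = 0.407). PGF2alpha 2 stood far below the rest there, and the other WNT5B probe set had a difference of 0.10 (adjusted p = 0.934). PORCN, the acyltransferase that attaches the lipid to Wnt proteins, gave 302, 369 and 348 against 311, 255 and 204, with overlapping groups (0.37, adjusted p = 0.334). WNT11 and WNT3 differed by 0.49 and -0.34 (adjusted p = 0.491 and 0.498).

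The other 12 ligand genes, WNT1, WNT2, WNT2B, WNT4, WNT6, WNT7A, WNT7B, WNT8A, WNT8B, WNT9B, WNT10A and WNT16, had no probe set above the filter on low signals. The 16 untested ligand probe sets had signals of 3.15 to 184. WNT4 was among them, at 14.1, 118 and 21.4 in PGF2alpha and 16.1, 16.0 and 24.1 in vehicle. Only PGF2alpha 2 stood out, still near its array's median. A WNT2B probe set was lower on every treated array, at 87.2, 68.5 and 69.1 against 184, 171 and 107. Its difference was -0.74 (adjusted p = 0.306 in the limma fit without the filter). The other WNT2B probe set overlapped between groups, at -0.25. Over all roles, 32 member probe sets and 18 genes were untested, 20 of the probe sets were below the median on every array, and in a limma fit without the filter none of the 32 reached the threshold (3 at unadjusted p under 0.05, smallest adjusted p 0.200).

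**Figure D2:**
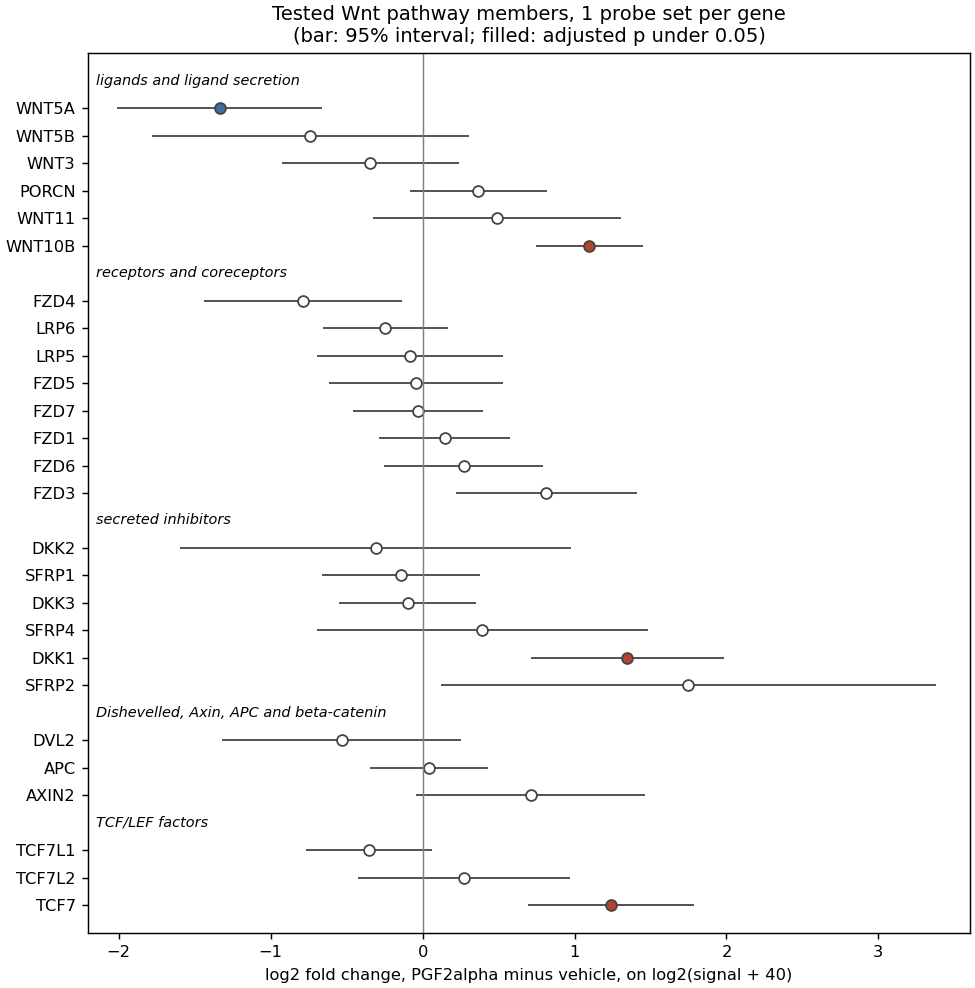
Log2 fold change (PGF2alpha minus vehicle, on log2(signal + 40)) of the 26 tested Wnt genes by role, with 95% intervals; filled points have adjusted p under 0.05. The 4 called genes are WNT10B, DKK1 and TCF7 to the right of 0 and WNT5A to the left, and SFRP2 has the widest interval, 0.12 to 3.38.

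No receptor or coreceptor was called: 8 of 11 genes were tested, and the median log2 difference was -0.037. Of those 8, 2 had unadjusted p under 0.05 in limma, beside 2426 of all 9980 tested genes. FZD4 had the largest difference below 0. Its signals were 1333, 885 and 2166 in PGF2alpha and 2069, 2948 and 2251 in vehicle. PGF2alpha 3 lay among the vehicle arrays and the other treated arrays below them, and the means were 1461 ± 650.0 and 2423 ± 464 (SD, n = 3 each). The log2 fold change was -0.79 (SE 0.289, 95% interval -1.44 to -0.14, limma adjusted p = 0.158), and the dimmer FZD4 probe set gave -0.75 (adjusted p = 0.356). Of the 6 fits that left out 1 array, only that without PGF2alpha 3 called FZD4 (-1.11, limma adjusted p = 0.0263). In the others the difference shrank to as little as -0.48 and adjusted p reached 0.381.

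FZD3, a receptor known for planar polarity and axon guidance, had groups that did not overlap: 178, 193 and 140.2 against 70.3, 90.0 and 77.3. Its log2 difference was 0.82 (95% interval 0.22 to 1.41, limma adjusted p = 0.115). The vehicle signals were below their arrays' medians, so the gene met the filter through PGF2alpha arrays alone and the size of the fold is uncertain. The remaining receptors differed little: FZD6 0.27, FZD1 0.15, FZD7 -0.03, FZD5 -0.04, LRP5 -0.08 and LRP6 -0.25 in log2 difference, with adjusted p of 0.493 or more. The 95% interval was -0.46 to 0.40 for FZD7 and -0.66 to 0.17 for LRP6, neither of which reached a 2-fold change on this scale. FZD8, FZD9 and FZD10 were below the filter. FZD10 gave 105, 235 and 173 in PGF2alpha and 73.5, 67.9 and 72.1 in vehicle, with an adjusted p of 0.25 in the fit without the filter.

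Among the secreted inhibitors, DKK1 rose. Its signals (MmugDNA.33625.1.S1_at) were 236, 370.2 and 250.3 in PGF2alpha and 53.9, 112 and 99.7 in vehicle. Every treated array exceeded every vehicle array, the vehicle signals lay below their arrays' medians, and DKK1 met the filter through PGF2alpha arrays alone. The means were 286 ± 73.7 and 88.7 ± 30.8 (SD, n = 3 each), and the log2 fold change was 1.35 (SE 0.282, 95% interval 0.71 to 1.98, limma adjusted p = 0.0308), a fold of 2.54 of uncertain size, with 0.96 within run 1 and 2.13 within run 2. Its adjusted p was 0.0667 with no filter and 0.051 to 0.132 without any 1 array other than PGF2alpha 3.

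DKK3, a Dickkopf relative that does not act on the coreceptors as DKK1 does, had 6 tested probe sets that fell into different patterns. The called one (MmugDNA.35565.1.S1_at) gave 3033, 3042 and 2563 against 1760.3, 1228 and 1746. Its means were 2879 ± 274 and 1578 ± 303 (SD, n = 3 each), and the log2 fold change was 0.87 (SE 0.176, limma adjusted p = 0.028; 0.91 within run 1 and 0.78 within run 2). A second one gave 3043, 3121 and 2852 against 2039.9, 1019 and 2308, higher in every treated array, at 0.82 (adjusted p = 0.121). The brightest one, which represents the gene, gave 6941, 6454 and 4703 against 5475, 8129 and 5812, with a difference of -0.10 (adjusted p = 0.831). Vehicle 5 was the highest of the 6 arrays there and the lowest in the called probe set. The other DKK3 probe sets gave -0.10, 0.03 and 0.40, none past the threshold, so the gene as a whole had no settled direction. The called DKK3 probe set lost its call without any 1 array other than PGF2alpha 3 (adjusted p 0.0509 to 0.107).

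SFRP2, which binds Wnt ligands outside the cell, had the largest difference of any member and also the largest error. Its signals were 21261, 12971 and 5872 in PGF2alpha and 1226, 11669 and 2875 in vehicle. Vehicle 5 reached the treated range, the vehicle arrays spread 9.52-fold and the treated ones 3.62-fold. The log2 fold change was 1.75 (SE 0.722, larger than in 99.9% of tested genes; 95% interval 0.12 to 3.38; limma adjusted p = 0.207), with 0.94 within run 1 and 3.36 within run 2. Of the 6 fits that left out 1 array, only that without vehicle 5 called SFRP2 (2.62, limma adjusted p = 0.0486). In the others the difference went down to 1.01 and adjusted p up to 0.457.

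Fibroblast and stroma markers were summed beside SFRP2. The summed signal of the 10 tested genes of that list was 111760, 99577.6 and 93950 in PGF2alpha 1, 2 and 3, and 64966, 90348 and 73097 in vehicle 4, 5 and 6. Within each group that sum had the same array order as SFRP2, but only 1 of the 10 genes (COL6A3) had that order itself. Of those genes 3 rose, among them COL6A3 (log2 fold change 1.13, limma adjusted p = 0.0119) and VCAN (1.19, adjusted p = 0.0267), and OGN fell (-0.93, adjusted p = 0.0483). That was 40% of the list called, beside 6.07% of all tested genes. The median of the list was 0.15, its lowest signal was 232, and its part in the SFRP2 values was not tested.

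The remaining inhibitors did not pass the threshold. SFRP4 gave 2042, 581 and 513 against 409.8, 983 and 647 (0.39, limma adjusted p = 0.702), with PGF2alpha 1 standing alone, and its dimmer probe sets gave -0.08, 0.24 and 0.24. SFRP1 gave 1480.1, 874 and 1629.6 against 1316, 1332 and 1628 (-0.14, adjusted p = 0.788), and DKK2 gave 690.1, 456 and 223 against 552, 1262 and 194 (-0.31, adjusted p = 0.813). DKK4, SFRP5 and WIF1 were below the filter. DKK4 gave 72.7, 55.3 and 120.4 in PGF2alpha and 26.3, 30.1 and 17.4 in vehicle, groups that do not overlap, at signals below the array medians (adjusted p = 0.200 in the fit without the filter).

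Downstream of the receptors, none of the 3 genes measured was called in limma, and none had unadjusted p under 0.05. AXIN2, a scaffold of the destruction complex that is itself a widely used target of beta-catenin, gave 347, 298 and 125 in PGF2alpha and 102, 143 and 150.2 in vehicle. PGF2alpha 1 and 2 exceeded every vehicle array and PGF2alpha 3 lay among them. The means were 257 ± 117 and 132 ± 25.9 (SD, n = 3 each), and the log2 fold change was 0.71 (95% interval -0.04 to 1.47, limma adjusted p = 0.265; 0.44 within run 1 and 1.25 within run 2). Of the 6 fits that left out 1 array, only that without PGF2alpha 3 called AXIN2 (1.09, limma adjusted p = 0.0424). In the others the difference went down to 0.47 and adjusted p up to 0.556. Other AXIN2 probe sets were below the filter and differed in sign. In the limma fit without the filter they gave 0.79, -0.49 and 0.33 (adjusted p = 0.418, 0.566 and 0.758).

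The probe sets representing the other genes of this step overlapped between groups. DVL2, a Dishevelled, gave 122, 157 and 71.7 against 254, 219 and 102 (-0.53, adjusted p = 0.429). APC, the tumour suppressor of the destruction complex, gave 682, 565 and 774 against 578, 717 and 654 (0.04, 95% interval -0.34 to 0.43, adjusted p = 0.917). A change of 2-fold on this scale lay outside that interval. Its other probe sets gave -0.14 and -0.13. The first of them was lower on every treated array, at 505, 539 and 480 against 564, 564 and 565 (limma adjusted p = 0.635).

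Of the nuclear factors, TCF7 rose and its relatives did not pass the threshold. TCF7 (MmuSTS.3964.1.S1_at), also called TCF1 and known from T cells, gave 264, 475 and 356 in PGF2alpha and 147, 118 and 119 in vehicle. Every treated array exceeded every vehicle array, PGF2alpha 2 by the most. The means were 365 ± 106 and 128 ± 16.4 (SD, n = 3 each), and the log2 fold change was 1.24 (SE 0.241, 95% interval 0.70 to 1.78, limma adjusted p = 0.025), a fold of 2.36 that is uncertain in size because the vehicle signals lay near their arrays' medians; it was 1.13 within run 1 and 1.46 within run 2. TCF7 kept its call without PGF2alpha 1 or 3 and lost it without PGF2alpha 2 (adjusted p = 0.103), vehicle 4 (0.0508), vehicle 5 (0.0644) or vehicle 6 (0.0827), and with no filter (0.0552).

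TCF7L1, which acts mainly as a repressor, gave 426, 431 and 531 against 614, 713 and 491 (-0.35, 95% interval -0.77 to 0.06, limma adjusted p = 0.317). TCF7L2 had 6 tested probe sets with differences of -0.08 to 0.27, none past the threshold, the brightest at 0.27 (adjusted p = 0.672).

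Most tested leukocyte markers were higher after PGF2alpha, as TCF7 was. Of 11 listed lymphocyte markers 2 were tested: GNLY, a granule protein of cytotoxic lymphocytes, rose by 3.01 on the log2 scale (limma adjusted p = 0.00186), and GZMA gave -0.85 (adjusted p = 0.0584). CD8A, NKG7, CD79A and MS4A1 were below the filter, and the other 5 had no probe set under 1 symbol. The summed signal of GNLY and GZMA was 23540.2, 32043.9 and 17495 in PGF2alpha 1, 2 and 3 and 4589 to 6518 in vehicle. Macrophage and monocyte markers rose in 8 of 15 tested genes with none lower, led by MRC1 (2.95, adjusted p = 0.000195). That is 53.3%, beside 3.76% of all tested genes called higher. MARCO, 1 of the 8, met the filter through PGF2alpha arrays alone and so had to differ. The summed signal of the tested macrophage genes was 54622 to 89124 against 21612 to 36611. Of 10 listed neutrophil markers 4 were tested and all 4 rose, beside the same 3.76% of all tested genes, while S100A12, CSF3R, FPR1, MPO and ELANE were below the filter. Summed signals of the 4 were 12128 to 30554 against 3324 to 6648. PGF2alpha 2 had the highest sum in all 3 lists and the highest signal in DKK1 and TCF7, whereas WNT10B was highest in PGF2alpha 1. Gene by gene, PGF2alpha 2 was highest in 8 of the 15 macrophage markers and in 4 of the 4 neutrophil markers, and PGF2alpha 3 in 5 macrophage markers. In the lymphocyte list PGF2alpha 2 was highest in 1 of 2 markers, GNLY, which made up most of the treated sums. GZMA was below vehicle on every treated array and lowest in PGF2alpha 2 (1953, 1183 and 1940 against 2616, 3584 and 2873). The part of these markers in the rises of WNT10B, DKK1 and TCF7 was not tested.

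Among markers of vessels, the ovarian surface and red cells, 1 gene was called. Of 11 tested endothelial markers 1 rose (CLDN5, 0.90, limma adjusted p = 0.0266), which is 9.09% called beside 6.07% of all tested genes. Their summed signals were 25397 to 36400.1 against 26602 to 29854, with a median log2 difference of 0.056. No pericyte, ovarian surface epithelium or red cell marker was called among 6, 5 and 4 tested genes, with medians of 0.22, -0.18 and -0.057. No tested marker of any list had a signal of exactly 0.

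**Figure D3:**
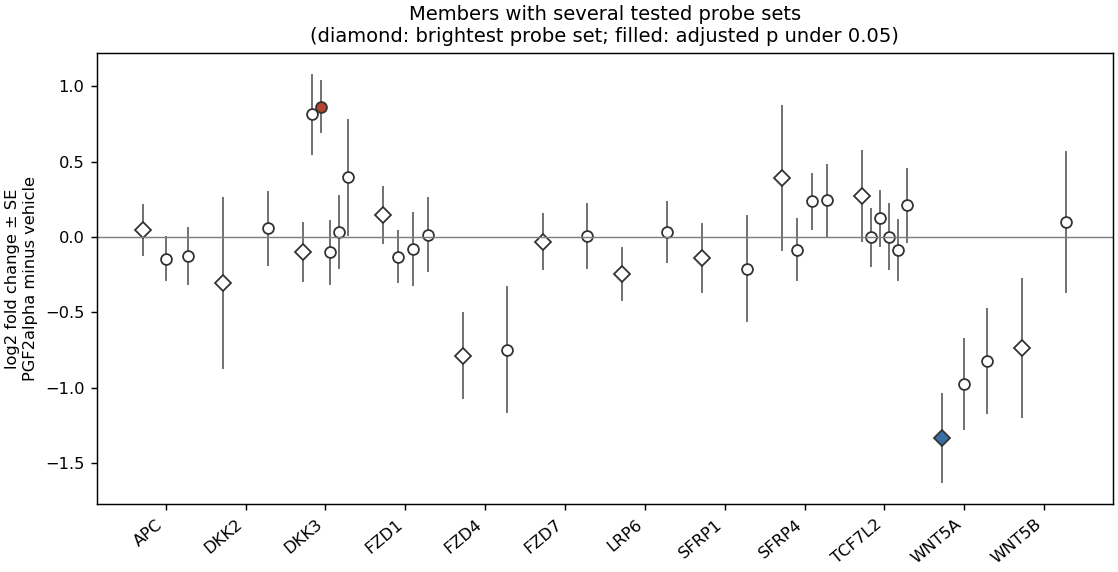
Log2 fold change ± SE (PGF2alpha minus vehicle) of every tested probe set of the 12 Wnt genes with more than 1, ordered from brightest (diamond) to dimmest; filled points have adjusted p under 0.05. The 3 WNT5A probe sets all lie below 0, while those of DKK3 lie on both sides, from -0.10 to 0.87.

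Probe sets of 1 gene often differed in sign. Of the 12 Wnt genes with several tested probe sets, 3 had the same sign in all of them (WNT5A, FZD4 and SFRP1), each below 0, and 9 had both signs. WNT10B, DKK1 and TCF7 each rest on 1 tested probe set. TCF7 also had probe sets below the filter, fitted in limma without it. The brighter gave 77.1, 128 and 132 against 76.0, 89.1 and 49.0, overlapping groups (0.45, adjusted p = 0.596). The dimmer gave 0.08 (adjusted p = 0.929).

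Outside the chosen members, 91 other genes of the pathway were listed, 65 of them were tested, and 3 rose while none fell in limma (4.62% called, beside 6.07% of all genes), with a median log2 difference of 0.051. APCDD1, a membrane-bound inhibitor that binds Wnt and LRP5, gave 4983, 4236 and 3245 in PGF2alpha and 1775, 1687 and 2027 in vehicle. The groups were far apart, with means of 4155 ± 872 and 1829.6 ± 177 (SD, n = 3 each), and the log2 fold change was 1.15 (SE 0.179, adjusted p = 0.012), a fold of 2.22. It kept its call without any 1 array except PGF2alpha 2 (adjusted p = 0.0579). IGFBP4, an insulin-like growth factor binding protein that can also bind LRP6, gave 15595, 15055 and 14318 against 10387, 10236 and 9516, which was 0.58 higher on the log2 scale (SE 0.114, adjusted p = 0.0266).

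DAAM1, a formin that links Dishevelled to the actin cytoskeleton in the polarity branch, gave 4929, 4478 and 2681 against 1519.7, 2301 and 1869.9. Its log2 fold change was 1.04 (SE 0.244, adjusted p = 0.0434), and with the hybridisation run as a block adjusted p was 0.0554. IGFBP4 and DAAM1 each kept the call only when PGF2alpha 3 was the array left out (adjusted p up to 0.107 and 0.155 without another). CAMK2G, a calcium-dependent kinase, was lower on every treated array at -0.68 (adjusted p = 0.0549).

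The other roles held no call. Of 9 other receptor genes, ROR1, a receptor for WNT5A, gave 0.91 (limma adjusted p = 0.192) and RNF43, a ubiquitin ligase that removes Frizzled, 0.32 (0.25). Of 19 genes of the destruction complex, FBXW11 gave -0.34 (0.179) and CSNK1E 0.44 (0.219). Of 14 nuclear cofactors, TLE3 and TLE5 gave 0.55 (0.176) and -0.37 (0.263). WLS, the carrier that brings Wnt proteins to the cell surface, gave 0.49 (0.266), and NOTUM, which removes their lipid, 0.52 (0.506). RSPO1, RSPO2, RSPO3, LGR5, KREMEN2, SOST, SOSTDC1 and CER1 were below the filter.

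**Figure D4:**
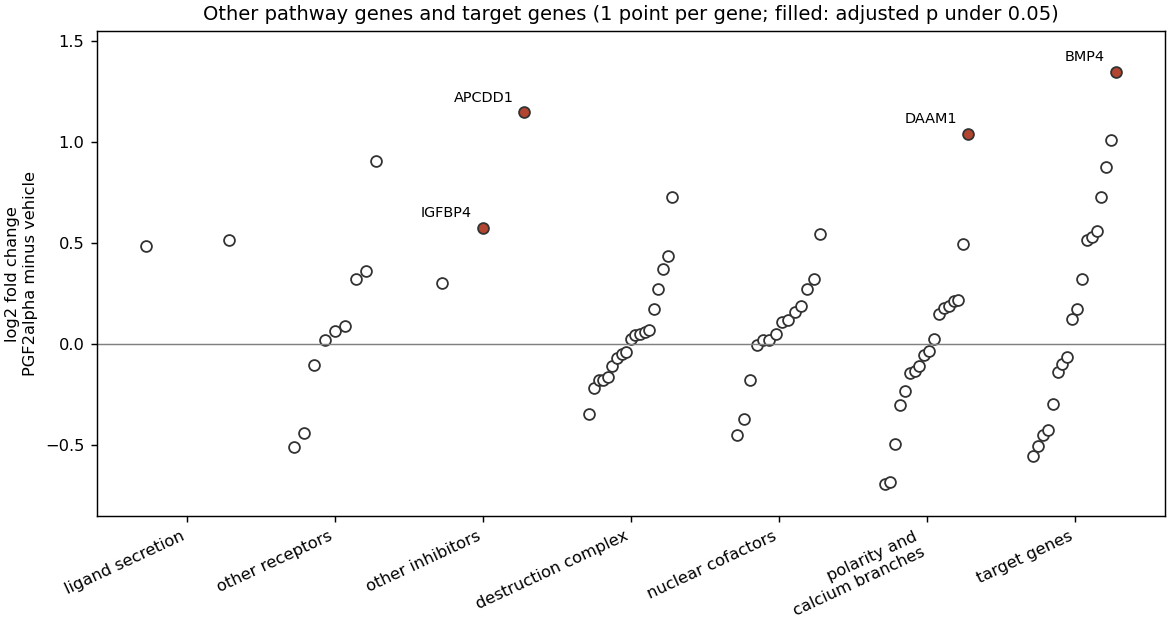
Log2 fold change (PGF2alpha minus vehicle) of the 65 other tested pathway genes by role and of the 18 tested target genes, 1 point per gene; filled points have adjusted p under 0.05. APCDD1, IGFBP4, DAAM1 and BMP4 are the called genes, and the other points lie between -0.69 and 1.01.

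Known target genes of beta-catenin did not move together. Of 32 listed, 18 were tested, 10 of them were above 0, and the median log2 difference was 0.15. The list left out AXIN2, DKK1 and TCF7, which are members, while NKD1, RNF43 and NOTUM are in this list and the other pathway list. BMP4, a growth factor of the BMP family, was the only gene of the list called, 5.56% of those tested beside 6.07% of all genes. It gave 858, 844 and 425 in PGF2alpha and 248, 312 and 179 in vehicle, with means of 709 ± 246 and 247 ± 66.3 (SD, n = 3 each) and a log2 fold change of 1.35 (SE 0.287, limma adjusted p = 0.0321). BMP4 kept its call only when PGF2alpha 3 was the array left out, and adjusted p reached 0.126 without another. CD44, a hyaluronan receptor also carried by leukocytes, gave 434, 618 and 317 against 182, 224 and 265, groups that do not overlap (0.88, adjusted p = 0.0805). Without PGF2alpha 3, 4 targets were called: BMP4, CD44, CCND1 and RUNX2, of which 2 rose and 2 fell. That array was the treated one nearest the vehicle mean in 73.3% of all called genes. The share of all genes called without it is not given beside these 4, so they are only a description. With all 6 arrays the probe set representing RUNX2 gave 6037, 5912 and 6947 against 7416, 6160 and 6674 (-0.10, limma adjusted p = 0.737). Whether the RUNX2 call without PGF2alpha 3 came from that probe set was not checked.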

How the data were processed

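Signals were analysed for 6 Affymetrix rhesus arrays, 3 per treatment. The deposited values are linear probe-set intensities that the authors made with MAS5, as the submitters' processing notes and the labels state; its version is not given in the sources used here. The values were kept as deposited, 40 was added, and log2 was taken. Columns of other samples numbered 0, and 99 control probe sets were left out of the tests. Symbols came from a platform annotation that can be old: 24969 probe sets had 1 symbol, 361 several and 27535 none. No genome was used, so no coordinates or sequences are given. The groups were compared with limma 3.58.1 (eBayes with trend) in R 4.3.3 over all 26944 tested probe sets, with no covariate; the procedure was tested on simulated data. Named were members past the threshold, the 4 genes of smallest p in each role, in other pathway roles and the targets each called gene and the 2 of smallest p, and up to 2 per marker list. Other members, and the arrays singled out, were named after their values were seen. The members and lists were chosen with earlier results of these data known. Alternatives were other scalings, pseudocounts (10 and 160), filters, eBayes settings, array weights, cross-hybridising probe sets left out, the mean of a gene's probe sets, the run as a block, run 1 only, and each array left out. The number of arrays limits the precision.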

Additional observations from a re-analysis of the deposited data

How the results depend on the processing

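No paired analysis was possible because the groups share no replicate numbers (1 to 3 and 4 to 6). Quantile or median scaling, either pseudocount, robust eBayes and the run as a block kept the 5 called member probe sets and the 4 called genes in number. Member probe sets called were 2 with no filter, 3 with a filter at the 70th percentile, 3 without the eBayes trend, 0 in run 1 only (limma, 7 at unadjusted p under 0.05), and 1 to 9 with 1 array left out. Member genes called were 1 with no filter, 2 with the 70th-percentile filter, 0 in run 1 only (4 unadjusted), and 1 to 6 with 1 array left out; WNT10B was called in each of those 6 fits. Run 1 has 2 arrays per group. Other pathway genes called were 1 with no filter, 1 without the trend, 5 with array weights, 0 in run 1 only (9 unadjusted), and 0 to 4 with 1 array left out (0 without PGF2alpha 2, 9 unadjusted). Targets called were 0 with no filter (7 unadjusted), 0 without the trend (6 unadjusted), 0 in run 1 only (3 unadjusted), and 0 to 4 with 1 array left out (0 without any array but PGF2alpha 3, with 3 to 6 unadjusted). The median log2 difference of the members was 0.101 with no filter, 0.0892 with array weights, 0.133 in run 1 only, and -0.0097 to 0.128 with 1 array left out. The sign turned in SFRP1 (0.0745 in run 1 only, -0.31 to 0.13 with 1 array left out), SFRP4 (-0.22 to 0.74), APC (-0.056 to 0.16; -0.0752 as the mean of its probe sets) and DKK3 (-0.21 to 0.0766; 0.32 as that mean), none of them called; the cause was not tested. Among 23 named genes the sign held in 19. Genes called over the whole array were 606, against 356 with no filter, 284 without the trend, 24 in run 1 only, and 98 to 860 over the fits that left out 1 array.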
